A study of Homo sapiens with 27 samples.

Results

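Ribosome footprints of THP-1 macrophages that had received lipopolysaccharide together with dexamethasone (LPS+Dex) were compared with those of cells given vehicle. All 5 LPS+Dex and all 5 vehicle footprint libraries entered the comparison, 10 of the 27 libraries of the study, and of 20453 genes counted in them the 12197 with enough counts were tested. THP-1 is a human monocytic leukaemia line, so every library comes from 1 cell line. Before treatment, which lasted 3 h, every group was differentiated by PMA, a phorbol ester, at 10 ng/ml over 24 h. The LPS+Dex cells received 100 ng/ml LPS and 1 µM dexamethasone, and the vehicle cells received 0.1% ethanol/PBS. The sample records give 0.1% ethanol for every group. A further 5 footprint libraries came from cells given LPS alone, and they shared the estimate of the spread. No group received dexamethasone alone, so LPS+Dex against vehicle holds the changes of both agents together. For footprints, 10 M cells (M for mega) were lysed per sample. The study also holds 12 poly(A) RNA-seq libraries, 4 per treatment, made, per the labels, from 3 M of the cells processed for footprints.

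LPS is a component of the outer membrane of Gram-negative bacteria that activates Toll-like receptor 4 and, through it, NF-kB, MAP kinases and interferon regulatory factors. Dexamethasone is a synthetic glucocorticoid; its receptor, NR3C1, enters the nucleus, activates genes such as FKBP5 and TSC22D3 and restrains many inflammatory genes. A footprint is the stretch of mRNA that a ribosome shields from nuclease, so footprint counts follow both how much of an mRNA is present and how many ribosomes sit on it.

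The footprint libraries held 11477048 to 24435806 counts with LPS+Dex and 15399106 to 24275778 with vehicle, and from 13805 to 14716 genes were detected per library. The libraries numbered 4 stood apart in every treatment. Over genes, the SD of their log2 deviation from the group mean was 0.632 with LPS+Dex and 0.552 with vehicle, against 0.227 to 0.33 in the other 8 libraries. Of 16 macrophage and monocyte markers 15 averaged above 10 CPM (the count relative to the TMM-adjusted size of the library), with summed levels of 9909 to 26285 CPM with LPS+Dex and 10876 to 20480 CPM with vehicle. Of 13 T, B and NK cell markers 3 (CD2, MS4A1 and KLRD1) had no footprint count in any of the 10 libraries, and 1, GNLY, averaged above 10 CPM; the list summed to 26.2 to 101 CPM with LPS+Dex and 23 to 50.9 CPM with vehicle. HBA2, HBG1 and PF4, among the erythroid and platelet markers, had no count.

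Regions upstream of 5 genes named below are shown first, as examples chosen because they hold matches to an NF-kB or interferon element. A kappaB match here means GGGRNNYYCC on either strand, with R for A or G, Y for C or T and N for any base. No such match was found in the windows of TNF, IL1B, CXCL8, PTGS2, SOCS3, TNFAIP6, IRAK2, TRAF1, ABTB2 and FSTL3, also named below. Sites that depart from this pattern were not read, so these windows may still hold NF-kB sites. All windows are RefSeq's of build GRCh38.p14 and run from 250 bases before to 50 bases after the annotated start. They are written 5′ to 3′ on the gene's strand. The first 4 belong to NF-kB feedback genes and chemokines, with matches to the kappaB consensus, on either strand, in capitals: TNFAIP3 (chr6:137867009-137867308, plus strand), NFKBIA (chr14:35404700-35404999, minus strand), CCL20 (chr2:227813592-227813891, plus strand) and CXCL10 (chr4:76023448-76023747, minus strand). The fifth is IFIT1 (chr10:89392373-89392672, plus strand), an antiviral gene, with matches to GAAANNGAAA, the core of the interferon-stimulated response element, in capitals; both of its matches lie on the opposite strand.
TNFAIP3: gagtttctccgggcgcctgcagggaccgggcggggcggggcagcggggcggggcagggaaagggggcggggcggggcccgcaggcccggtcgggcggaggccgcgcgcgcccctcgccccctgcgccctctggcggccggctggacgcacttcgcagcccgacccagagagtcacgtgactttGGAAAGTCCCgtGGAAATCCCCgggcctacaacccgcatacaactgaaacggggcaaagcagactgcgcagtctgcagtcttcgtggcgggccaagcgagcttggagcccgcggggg
NFKBIA: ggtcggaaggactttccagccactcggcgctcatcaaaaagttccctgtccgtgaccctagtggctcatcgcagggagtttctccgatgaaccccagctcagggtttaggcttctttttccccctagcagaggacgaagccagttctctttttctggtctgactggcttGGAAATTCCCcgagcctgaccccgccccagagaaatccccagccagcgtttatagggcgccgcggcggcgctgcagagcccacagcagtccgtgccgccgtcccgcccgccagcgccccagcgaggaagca
CCL20: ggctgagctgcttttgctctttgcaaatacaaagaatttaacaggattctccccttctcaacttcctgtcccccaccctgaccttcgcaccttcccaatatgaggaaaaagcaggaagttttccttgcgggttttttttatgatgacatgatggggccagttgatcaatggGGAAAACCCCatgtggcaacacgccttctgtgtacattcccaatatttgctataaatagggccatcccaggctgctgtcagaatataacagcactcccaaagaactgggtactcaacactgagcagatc
CXCL10: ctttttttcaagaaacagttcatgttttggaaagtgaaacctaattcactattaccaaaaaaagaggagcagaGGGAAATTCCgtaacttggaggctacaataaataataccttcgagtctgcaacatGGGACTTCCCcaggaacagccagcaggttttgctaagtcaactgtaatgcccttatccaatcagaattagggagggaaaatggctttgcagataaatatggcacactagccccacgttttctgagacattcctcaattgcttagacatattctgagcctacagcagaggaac
IFIT1: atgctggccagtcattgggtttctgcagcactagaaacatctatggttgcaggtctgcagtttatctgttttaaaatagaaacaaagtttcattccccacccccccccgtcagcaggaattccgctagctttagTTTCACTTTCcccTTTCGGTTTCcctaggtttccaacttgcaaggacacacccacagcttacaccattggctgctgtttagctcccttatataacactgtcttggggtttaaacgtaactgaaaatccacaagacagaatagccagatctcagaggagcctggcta

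TNFAIP3 had 2 kappaB matches, beginning 67 and 55 bases before the start, and CXCL10 had 2, at 177 and 122 bases. NFKBIA and CCL20 had 1 each, at 81 and 79 bases. The interferon element began 116 and 103 bases before the start of IFIT1. Of all 35116 windows, 11.3% held a kappaB match and 3.57% the interferon element. Counted per gene, 16 of 26 NF-kB genes with a window (61.5%) and 15 of 32 cytokine genes (46.9%) held a kappaB match, against 1735 of 9898 genes tested for footprints (17.5%). The interferon element lay in 29 of 40 interferon response genes (72.5%), against 404 of those 9898 (4.08%). A kappaB match was found in 62 of 234 genes whose footprints were called at least 4-fold higher with LPS+Dex (26.5%) and in 14 of 69 called at least 4-fold lower (20.3%), both at a mean of at least 5 CPM. A full glucocorticoid response element, AGAACA and TGTTCT separated by any 3 bases, lay in 1 of 27305 genes and in 0 of the tested ones. The single AGAACA block, on either strand, lay in 14.8% of all windows, in 7 of 36 listed glucocorticoid receptor targets (19.4%) and in 1296 of the 9898 tested genes (13.1%). These are matches of letters only. Sites further from the start, and sites that depart from the patterns given, were not read.

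Across all genes, the footprints of similar numbers of genes were higher and lower with LPS+Dex, and changes of 4-fold or more were mostly upwards. By the edgeR quasi-likelihood F test at a Benjamini-Hochberg adjusted p under 0.05, 5657 of 12197 genes differed from vehicle (46.4%), of which 2971 were higher (24.4%) and 2686 lower (22%). At least 2-fold changes were called in 1005 genes upwards and 972 downwards, at least 4-fold changes in 493 and 203, and at least 16-fold changes in 117 and 11. In 3997 genes (32.8%) the 5 LPS+Dex and 5 vehicle libraries did not overlap in CPM, and 3939 of these were called. Log2 fold changes, given throughout as LPS+Dex over vehicle with a standard error (SE), had a median of 0.01 over all genes.

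With the replicate number as a block, 7454 genes were called, 3820 higher (31.3%) and 3634 lower (29.8%), and 5648 of the 5657 kept their call and direction. Without the 3 libraries numbered 4, 3770 of 12233 genes were higher (30.8%) and 3866 lower (31.6%), and 5563 of the 5657 kept theirs. The split depended on the scaling: TMM gave 52.5% of calls upwards, whereas scaling to library totals gave 23.4% (1129 higher, 3703 lower) and moved the median of all genes to -0.33. Upper quartile scaling gave 40.1% upwards and a median of -0.11. Counts and medians of gene lists given below under any of these settings are to be read against its values for all genes. TMM factors were 1.03 to 1.07 with LPS+Dex (0.617 in replicate 4) and 1.25 to 1.30 with vehicle (0.933 in replicate 4), so a shift of all genes together cannot be told apart from the scaling.

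**Figure D1:**
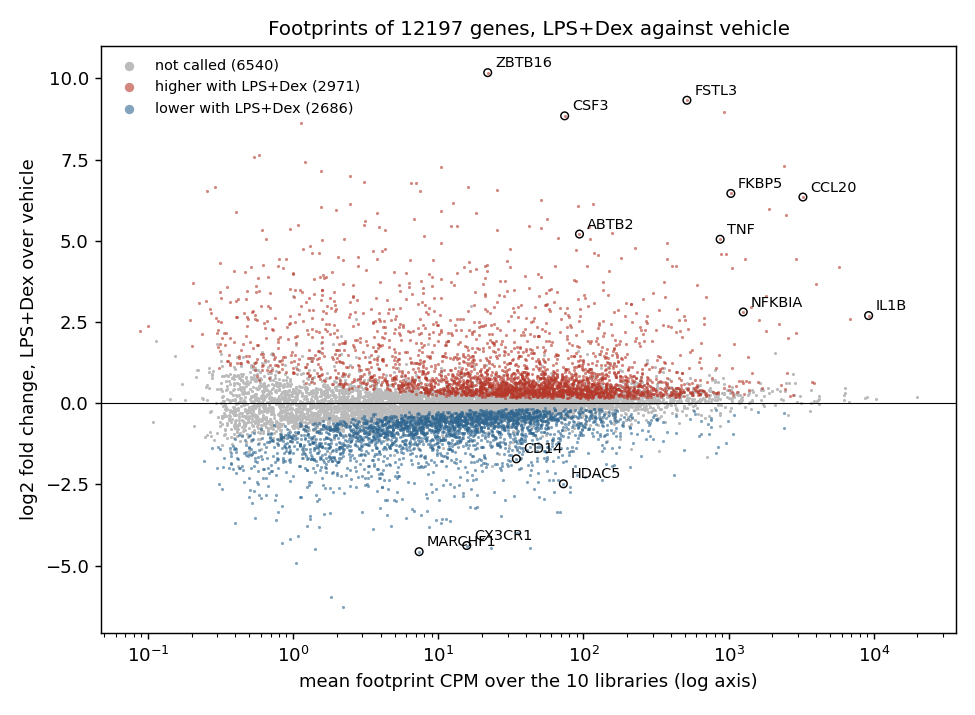
Each point is 1 of 12197 genes, with its mean footprint CPM over the 10 libraries on a log axis and its log2 fold change, LPS+Dex over vehicle, on the vertical axis. Red marks 2971 genes called higher and blue 2686 called lower at an adjusted p under 0.05 with TMM scaling (1129 and 3703 with library totals); ringed genes are named in the text, and ZBTB16 lies highest among the ringed genes at 10.18.

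Among called genes of at least 5 CPM whose libraries did not overlap, the largest rise was that of ZBTB16, a zinc finger repressor and known glucocorticoid target (ENSG00000109906, chromosome 11, 114059711 to 114256770). Its footprints stood at 46.5, 49.6, 50.4, 30.7 and 42 CPM in the LPS+Dex libraries 1 to 5, against 0, 0.0403, 0.0375, 0.0696 and 0.0317 CPM in the vehicle libraries, where the 5 libraries together held 4 counts. The log2 fold change was 10.18 ± 0.85 (SE, adjusted p = 1.67e-07), a fitted value that with so few vehicle counts is no bound. FSTL3, a secreted inhibitor of activin (ENSG00000070404, chromosome 19, 676392 to 683385), had 872, 782, 862, 1777 and 857 CPM with LPS+Dex, against 1.27, 2.01, 1.43, 2.23 and 1.17 CPM with vehicle. That is a log2 fold change of 9.33 ± 0.52 (adjusted p = 1.97e-09), and 9.18 without the libraries numbered 4.

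Next came CCN2, a matrix-associated growth factor, at 1157, 1059, 1006, 4888 and 1113 CPM with LPS+Dex and 2.97, 3.26, 3.49, 6.68 and 2.35 CPM with vehicle. Its rise of 8.96 ± 1.08 (adjusted p = 7.65e-06) was 8.50 without the libraries numbered 4. CSF3, the granulocyte growth factor, had 53.5, 45.2, 49.5, 542 and 50.3 CPM with LPS+Dex, against 0.181, 0.121, 0.413, 0.905 and 0.19 CPM with vehicle. LPS+Dex library 4 lay far above the rest of its group; the log2 fold change was 8.85 ± 1.30 (adjusted p = 5.37e-05) with it and 7.74 without the libraries numbered 4. CCL4L2, a chemokine gene whose reads may be shared with its near-identical copy CCL4, rose by 7.30 ± 0.26.

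The other large rises were of genes with very few vehicle footprints. PKP2, a desmosome component, rose by 7.27 ± 0.57 to 24.5, 21.9, 22.7, 16.5 and 18 CPM with LPS+Dex, against 16 counts in all vehicle libraries together. SPRY1, a brake on receptor tyrosine kinases, rose by 6.79 ± 0.57 (15 vehicle counts), and TRIM63, a ubiquitin ligase best known from muscle atrophy, by 6.78 ± 0.55 (14 vehicle counts). In PKP2, SPRY1 and TRIM63 LPS+Dex library 4 was the lowest of its group.

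The largest falls were chosen in the same way. MARCHF1, a ubiquitin ligase that removes MHC class II from the surface (ENSG00000145416, chromosome 4, 163524298 to 164384019), had 0.757, 0.556, 0.248, 1.04 and 0.343 CPM with LPS+Dex, against 13.3, 12.1, 13.8, 10.9 and 20.7 CPM with vehicle. It fell by 4.57 ± 0.31 (adjusted p = 1.82e-08), a fold of 23.7. CASS4, a scaffold of focal adhesions, had 2.75, 4.25, 2.15, 6.22 and 2.99 CPM with LPS+Dex and 75.7, 73.6, 75.6, 121 and 60.7 CPM with vehicle, and fell by 4.47 ± 0.32. CX3CR1, the fractalkine receptor of monocytes (ENSG00000168329, chromosome 3, 39263494 to 39292966), had 0.996, 2.46, 1.24, 1.73 and 0.687 CPM with LPS+Dex and 32.9, 31.1, 31.7, 18.4 and 35.7 CPM with vehicle, a log2 fold change of -4.38 ± 0.29 (adjusted p = 1.15e-08).

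ARHGAP25, which switches off Rac in phagocytes, fell by 4.46 ± 0.21. EEPD1, a nuclease-domain protein of DNA repair, fell by 4.00 ± 0.16, and the zinc finger gene ZNF618 fell by 3.82 ± 0.28. RGS14, a regulator of G protein signalling, fell by 3.70 ± 0.17, and RAB11FIP4, an effector of the endosomal GTPase Rab11, fell by 3.63 ± 0.22. Every one of these falls kept its direction and its call in all alternatives run. Those alternatives reuse the libraries in which the genes were chosen as called and not overlapping, so they add no independent evidence.

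**Figure D2:**
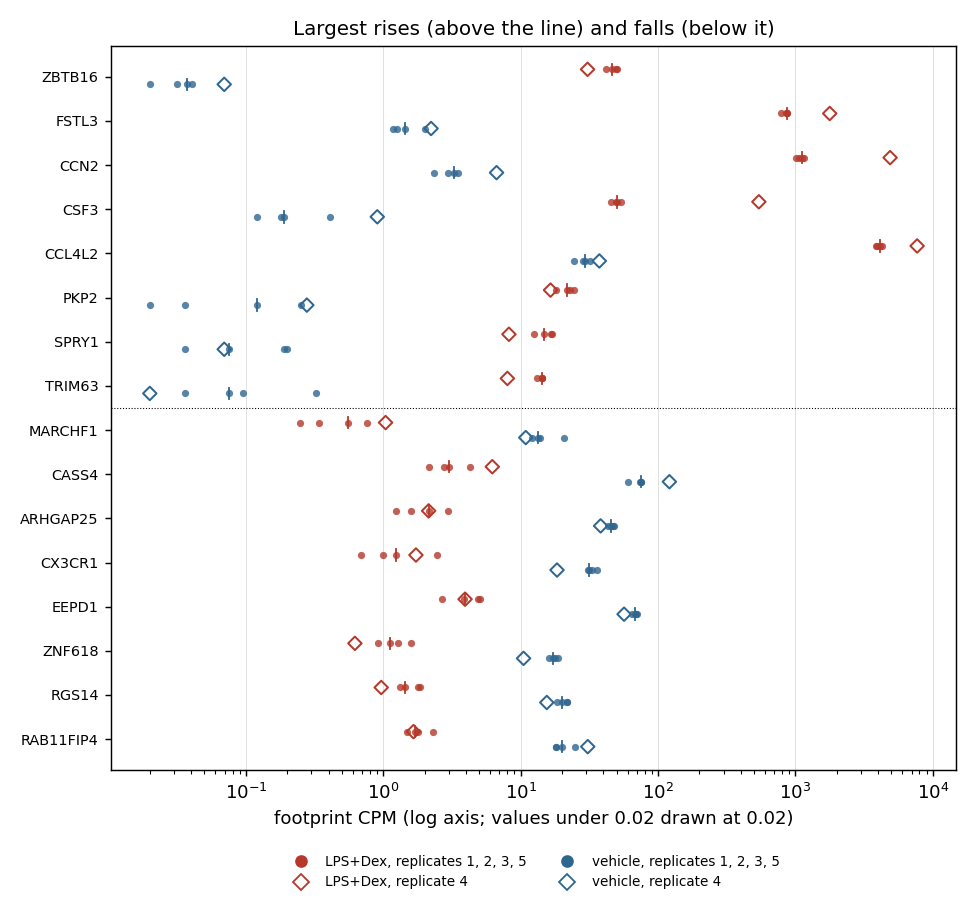
Footprint CPM on a log axis for the 8 largest rises (above the dotted line) and 8 largest falls (below it), with 1 point per library, LPS+Dex in red above vehicle in blue for each gene, a tick at the median and an open diamond for replicate 4. Only genes whose groups did not overlap could be chosen, so the red and blue points are apart by selection. In CSF3 and CCN2 the LPS+Dex library numbered 4 lies at 542 and 4888 CPM, far to the right of the other 4.

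The lowest p-values belonged to genes of more modest fold and small spread. ABTB2, an ankyrin repeat and BTB protein, had 197, 191, 184, 163 and 179 CPM with LPS+Dex and 4.74, 5.16, 4.65, 5.57 and 4.56 CPM with vehicle, a log2 fold change of 5.21 ± 0.11 (adjusted p = 1.93e-13). TRAF1, an adaptor of TNF receptors, had 2132, 1888, 2037, 2050 and 1852 CPM with LPS+Dex and 116, 117, 110, 122 and 93.7 CPM with vehicle, and rose by 4.16 ± 0.10. In both genes the libraries numbered 4 lay among or close to the others. STK26, a germinal centre kinase, rose by 3.33 ± 0.08, the ubiquitin ligase RNF144B by 6.27 ± 0.17 and the Ras-association protein RASSF4 by 3.49 ± 0.10.

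Downwards, HDAC5, a class II histone deacetylase, had 23.9, 23.5, 23.8, 20.1 and 19.5 CPM with LPS+Dex and 134, 116, 122, 125 and 119 CPM with vehicle. It fell by 2.48 ± 0.08 (adjusted p = 5.91e-12). MBP, known as myelin basic protein but also made in blood cells from an alternative start, fell by 2.73 ± 0.09, and DAB2, an endocytic adaptor, fell by 2.37 ± 0.08. MID1IP1, which promotes fatty acid synthesis, fell by 1.94 ± 0.07, and MYBPH, a myosin-binding protein, fell by 2.37 ± 0.10.

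Cytokine and chemokine genes were higher with LPS+Dex than with vehicle in most cases. Of 44 tested genes of the list, 30 were called higher and 0 lower, with a median log2 fold change of 2.46, against 24.4% higher and a median of 0.01 over all genes. With the block 35 were higher and 4 lower, and without the libraries numbered 4 36 and 4. Together these genes took 3.6, 3.46, 3.3, 7.41 and 3.59 percent of all footprints in the LPS+Dex libraries 1 to 5, against 0.506, 0.555, 0.51, 1.3 and 0.421 percent in the vehicle libraries. The libraries numbered 4 held the highest share in both groups, and no LPS+Dex library came as low as any vehicle library. In bulk samples a change in how many cells translate these mRNAs and a change in footprints per cell cannot be told apart.

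TNF, a cytokine released early in inflammation (ENSG00000232810, chromosome 6, 31575565 to 31578336), had 955, 913, 811, 5102 and 704 CPM with LPS+Dex, against 48.6, 48.2, 41.7, 90.7 and 26.4 CPM with vehicle. The groups were far apart, and the log2 fold change was 5.05 ± 0.79 (adjusted p = 9.67e-05), or 4.36 without the libraries numbered 4. IL1B, which inflammasomes mature (ENSG00000125538, chromosome 2, 112829751 to 112836779), had 12630, 11278, 11257, 32751 and 11898 CPM with LPS+Dex and 1815, 1906, 1773, 5569 and 1259 CPM with vehicle, and rose by 2.70 ± 0.44 (adjusted p = 0.000148). IL6, the acute-phase cytokine, had 4.9, 4.64, 4.96, 7.53 and 4.61 CPM with LPS+Dex and 0.253, 0.161, 0.3, 0.278 and 0.38 CPM with vehicle. It rose by 4.22 ± 0.25 (adjusted p = 4.45e-09).

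Among chemokines, CCL20, which attracts cells bearing CCR6 (ENSG00000115009, chromosome 2, 227813842 to 227817556), had 3909, 4033, 3840, 16766 and 3552 CPM with LPS+Dex and 66.2, 68.1, 68.3, 131 and 59.7 CPM with vehicle, a log2 fold change of 6.35 ± 0.61 (adjusted p = 8.03e-07). CXCL8, the neutrophil attractant, rose by 2.59 ± 0.61, with 7610, 7259, 6058, 30380 and 7478 CPM with LPS+Dex, against 1174, 1449, 1218, 4891 and 1007 CPM with vehicle. In both genes library 4 was the highest of its group. CXCL10, the interferon-induced T cell attractant, had 74.2, 81.1, 78.6, 63 and 118 CPM with LPS+Dex and 1.09, 0.806, 1.09, 5.78 and 1.39 CPM with vehicle, and rose by 5.46 ± 0.49, or 6.30 without the libraries numbered 4.

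CCL2, the monocyte attractant, gave no call. Its footprints stood at 12.4, 8.46, 9.84, 90.5 and 14 CPM with LPS+Dex and 7.57, 8.82, 7.73, 78 and 8.56 CPM with vehicle, a log2 fold change of 0.30 ± 0.79 (adjusted p = 0.786). Library 4 was the highest in both groups; without the libraries numbered 4 the value was 0.46 (adjusted p = 0.0058), without LPS+Dex library 4 alone it was -0.95, and without vehicle library 4 alone 1.72 (adjusted p = 0.041). With library totals it was -0.14. IL1RN, the decoy ligand that blocks IL-1 signalling, had 92.3, 85.2, 82, 1019 and 88 CPM with LPS+Dex and 132, 125, 129, 1365 and 135 CPM with vehicle. The log2 fold change of -0.46 ± 1.00 (adjusted p = 0.738) became -0.55 with the block (adjusted p = 1.14e-05), -0.58 without the libraries numbered 4 (adjusted p = 6.77e-08), and 1.07 without vehicle library 4 alone. IL10, the anti-inflammatory cytokine, rose by 3.47 ± 0.47 to 2.03, 2.3, 2.56, 5.94 and 1.81 CPM with LPS+Dex, against 0.29, 0.282, 0.338, 0.139 and 0.19 CPM with vehicle.

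**Figure D3:**
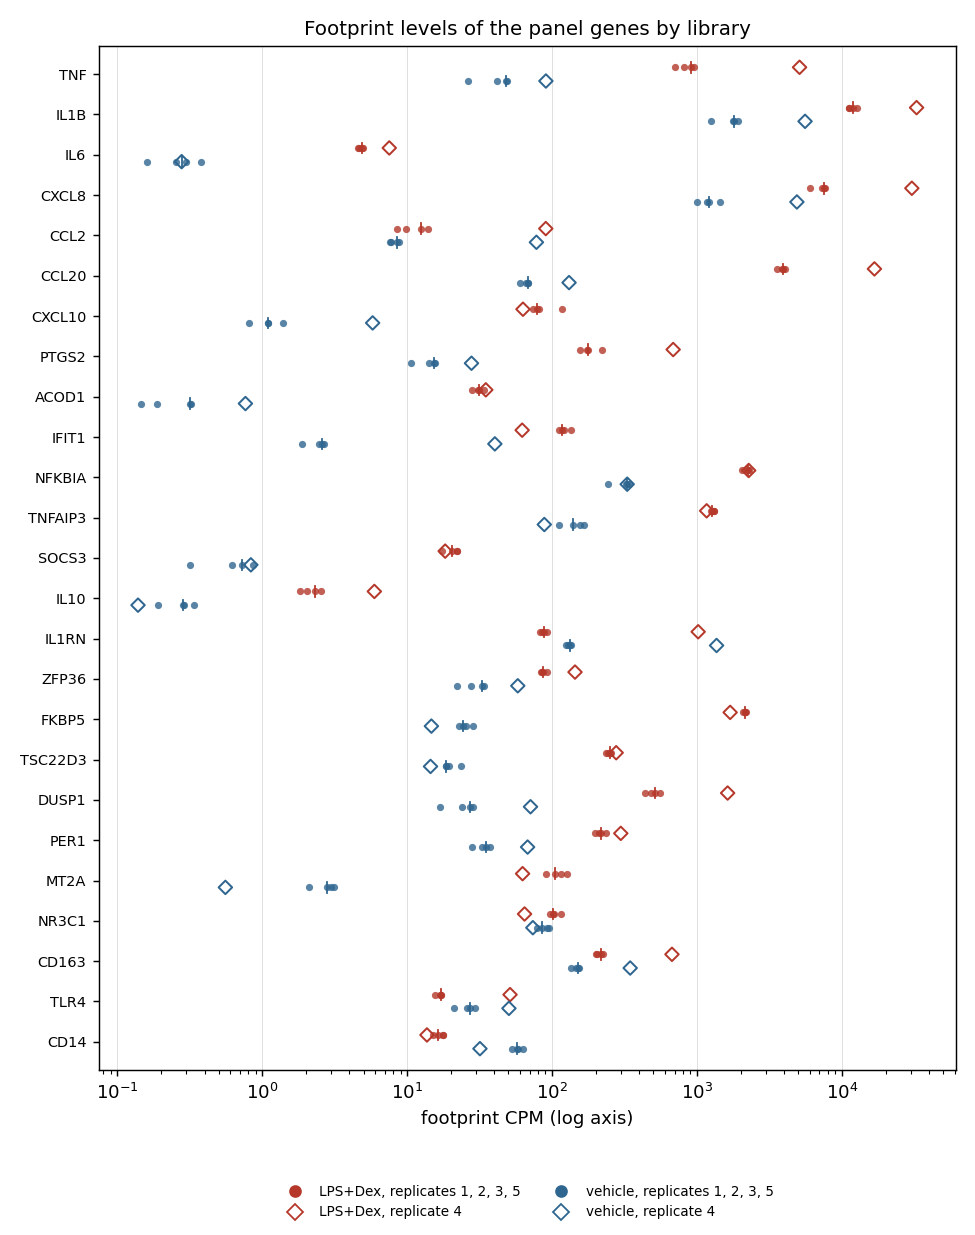
Footprint CPM on a log axis for the 25 genes of a panel of LPS and glucocorticoid responses, with 1 point per library, LPS+Dex in red above vehicle in blue for each gene, a tick at the median and an open diamond for replicate 4. TNF, CCL20 and FKBP5 are widely separated between the groups, whereas CCL2, IL1RN, NR3C1, CD163 and TLR4 overlap; with library totals the log2 fold changes of CCL2 and NR3C1 turn to -0.14 and -0.11.

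The enzymes PTGS2 and ACOD1 were also higher. PTGS2, the inducible cyclooxygenase, had 173, 178, 157, 685 and 220 CPM with LPS+Dex and 14.2, 15.4, 15.6, 27.8 and 10.7 CPM with vehicle, and rose by 4.08 ± 0.53 (adjusted p = 1.73e-05). ACOD1, which makes itaconate, had 31.2, 27.9, 30.8, 34.9 and 34.1 CPM with LPS+Dex and 0.145, 0.322, 0.188, 0.766 and 0.317 CPM with vehicle, and rose by 6.64 ± 0.26 (adjusted p = 4.75e-11).

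Genes of NF-kB and its feedback were higher with little spread between libraries. Over all genes 24.4% were called higher and 22% lower, and in 32.8% the libraries did not overlap. Of 30 tested genes of the list 27 rose (90%) and 0 fell, with a median log2 fold change of 2.38, and in 27 the libraries did not overlap. They held 1.51, 1.46, 1.47, 1.56 and 1.52 percent of footprints in the LPS+Dex libraries and 0.334, 0.346, 0.334, 0.338 and 0.294 percent in the vehicle libraries. NFKBIA, the inhibitor that retains NF-kB in the cytoplasm (ENSG00000100906, chromosome 14, 35401513 to 35404749), had 2254, 2040, 2269, 2274 and 2204 CPM with LPS+Dex, against 342, 326, 331, 330 and 243 CPM with vehicle. Its log2 fold change was 2.81 ± 0.11 (adjusted p = 5.94e-11).

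TNFAIP3, the ubiquitin editor A20 (ENSG00000118503, chromosome 6, 137866349 to 137883312), had 1312, 1308, 1250, 1166 and 1270 CPM with LPS+Dex and 139, 165, 155, 88.4 and 112 CPM with vehicle, and rose by 3.26 ± 0.15 (adjusted p = 2.11e-10). Both promoters are printed above with their kappaB matches. TNFAIP6, a secreted hyaluronan-binding protein, had the largest called rise of the list at 5 CPM or more, 4.79 ± 0.35. Outside this list SOCS3, which inhibits cytokine receptor signalling, rose by 4.93 ± 0.19. It had 22, 20.5, 22, 18.3 and 17.5 CPM with LPS+Dex and 0.615, 0.725, 0.863, 0.835 and 0.317 CPM with vehicle.

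Interferon response genes were mostly higher, with larger values once the libraries numbered 4 were left out. Of 52 tested genes 32 rose (61.5%, against 24.4% of all genes) and 2 fell (3.85%, against 22%), with a median of 1.33. Without the libraries numbered 4, where 30.8% of all genes rose and 31.6% fell, 45 rose and 2 fell (median 1.83). Vehicle library 4 held 1.43 log2 units more footprints of these genes, by the median, than the other vehicle libraries, whereas LPS+Dex library 4 differed from its group by -0.02. IFIT1, which binds viral RNA (ENSG00000185745, chromosome 10, 89392623 to 89406487), had 111, 117, 120, 62.2 and 136 CPM with LPS+Dex and 1.88, 2.66, 2.48, 40.3 and 2.6 CPM with vehicle. Its log2 fold change was 3.51 ± 0.77 (adjusted p = 0.00161) and 5.65 without the libraries numbered 4 (adjusted p = 1.8e-21).

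IFIT2, a relative of IFIT1, had 245, 242, 243, 94.3 and 315 CPM with LPS+Dex and 1.3, 1.93, 1.5, 10.2 and 2.12 CPM with vehicle, and rose by 6.14 ± 0.59, or 7.24 without the libraries numbered 4. IFITM2, which restricts virus entry, had the largest called fall of the list at 5 CPM or more, -0.40 ± 0.15 (adjusted p = 0.0473). This call ended when any 1 of LPS libraries 1, 2 and 5, LPS+Dex libraries 1 to 4, or vehicle libraries 1, 2, 3 and 5 was left out, with an adjusted p of up to 0.14. It also ended with DESeq2 size factors (0.057), with a filter of at least 1 CPM in 5 libraries (0.052) and with no filter (0.065), all adjusted p-values of the edgeR test. IFIT and IFITM genes have close relatives, and how shared reads were counted is not given in the sources used here.

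Glucocorticoid receptor targets were mostly higher as well. Of 40 tested genes 25 rose (62.5%, against 24.4% of all genes) and 5 fell (12.5%, against 22%), with a median of 1.60. With the block 30 rose (75%, against 31.3%) and 8 fell (20%, against 29.8%). FKBP5, a chaperone that restrains the receptor (ENSG00000096060, chromosome 6, 35573590 to 35728583), had 2078, 2174, 2142, 1694 and 2157 CPM with LPS+Dex and 22.9, 25.6, 24.2, 14.7 and 28.6 CPM with vehicle. The log2 fold change was 6.46 ± 0.29 (adjusted p = 1.78e-10), and library 4 was the lowest of both groups. TSC22D3, the anti-inflammatory leucine zipper GILZ, had 250, 237, 254, 277 and 244 CPM with LPS+Dex and 18.6, 18.5, 19.3, 14.5 and 23.6 CPM with vehicle, and rose by 3.74 ± 0.16 (adjusted p = 1.16e-10).

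DUSP1, which inactivates MAP kinases, rose by 4.43 ± 0.51 to 511, 478, 557, 1627 and 436 CPM with LPS+Dex, against 28.3, 24, 27.3, 71 and 16.9 CPM with vehicle. PER1, a clock repressor, rose by 2.53 ± 0.27, and MT2A, a metal-binding protein with close paralogs, by 5.40 ± 0.41. ZFP36, which destabilises cytokine mRNAs, rose by 1.50 ± 0.22. RGS2, a regulator of G protein signalling, fell by 1.37 ± 0.17, the largest called fall of the list at 5 CPM or more. The receptor itself, NR3C1, had 96.7, 103, 101, 64.6 and 115 CPM with LPS+Dex and 84.6, 94.8, 91.7, 73.7 and 78.3 CPM with vehicle, a log2 fold change of 0.18 ± 0.15 (adjusted p = 0.343), or 0.25 (adjusted p = 0.00551) without the libraries numbered 4. That value was -0.11 with library totals.

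Values with LPS alone are set beside these. They share the LPS+Dex, LPS and vehicle libraries and are therefore not independent of the comparison above. For FKBP5 the log2 fold change was 6.46 ± 0.29 for LPS+Dex over vehicle, 4.52 ± 0.26 for LPS+Dex over LPS and 1.95 ± 0.24 for LPS over vehicle. In the same order TSC22D3 gave 3.74 ± 0.16, 4.32 ± 0.17 and -0.59 ± 0.15. FSTL3 gave 9.33 ± 0.52, 4.19 ± 0.40 and 5.14 ± 0.44, with positive values throughout. In the LPS libraries 1 to 5 FKBP5 had 79.7, 75.3, 78.9, 58.6 and 155 CPM, and TSC22D3 had 12.7, 12.1, 10.7, 9.73 and 17.6 CPM. LPS library 5 was the highest in both genes. For FSTL3 the same libraries had 37, 32.5, 28, 110 and 73.6 CPM.

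NFKBIA gave 2.81 ± 0.11 for LPS+Dex over vehicle, 0.06 ± 0.11 for LPS+Dex over LPS (not called) and 2.75 ± 0.11 for LPS over vehicle. IL6 gave 4.22 ± 0.25, -2.74 ± 0.19 and 6.96 ± 0.25, and ACOD1 gave 6.64 ± 0.26, -2.56 ± 0.19 and 9.21 ± 0.28. Both genes lay above vehicle and below LPS alone in the LPS+Dex cells. EGLN1, the oxygen-sensing prolyl hydroxylase, gave 2.49 ± 0.17, 3.84 ± 0.18 and -1.35 ± 0.17: it was above vehicle with LPS+Dex and below vehicle with LPS. CX3CR1 gave -4.38 ± 0.29, -1.07 ± 0.28 and -3.32 ± 0.26.

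MAP kinase phosphatases and immediate early genes were higher in 17 of 32 (53.1%, against 24.4% of all genes) and lower in 8 (25%, near the 22% of all genes), with a median of 0.90. KLF2, an anti-inflammatory Krüppel-like factor, rose by 3.30 ± 0.30, with 41.4, 41.3, 49, 17.3 and 41.2 CPM with LPS+Dex and 5.14, 2.98, 3.86, 2.92 and 4.25 CPM with vehicle. EGR2, an early growth response factor, fell by 1.71 ± 0.24, with 24.3, 24.7, 25, 40.3 and 16.2 CPM with LPS+Dex and 83.4, 79.1, 77.3, 133 and 54.7 CPM with vehicle. With library totals 3 AU-rich mRNA decay factors were higher and 3 lower (median -0.13), against 1129 and 3703 of all 12197 genes (median -0.33). With TMM these decay factors were higher in 11 (42.3%) and lower in 3 (11.5%) of 26, with a median of 0.19. Among them ZC3H12A, the endonuclease Regnase-1 that cleaves cytokine mRNAs, had 562, 544, 582, 554 and 504 CPM with LPS+Dex and 57.5, 54, 52.3, 58.7 and 40.7 CPM with vehicle, a rise of 3.38 ± 0.11. ZFP36L1, a decay factor related to ZFP36, fell by 0.48 ± 0.12.

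Toll-like receptors and their adaptors were higher in 10 of 27 (37%, against 24.4% of all genes) and lower in 7 (25.9%, near the 22% of all genes), with a median of 0.27. IRAK2, a kinase that sustains Toll-like receptor signalling, had 660, 647, 620, 752 and 627 CPM with LPS+Dex and 75.5, 75.6, 78.2, 61.1 and 49.5 CPM with vehicle, and rose by 3.28 ± 0.13. TLR6, a partner of TLR2, had 3.71, 3.65, 3.31, 13.5 and 3.38 CPM with LPS+Dex and 15.4, 19.9, 16.7, 39.4 and 17.9 CPM with vehicle, and fell by 2.00 ± 0.42. TLR4, the LPS receptor, had 17, 16.9, 17.2, 51.3 and 15.6 CPM with LPS+Dex and 25.8, 27.2, 29.2, 50.4 and 21.1 CPM with vehicle, a log2 fold change of -0.38 ± 0.40 (adjusted p = 0.467) that was -0.48 with the block (adjusted p = 0.000707). CD14, its co-receptor, had 16.4, 15.2, 17.6, 13.7 and 17.7 CPM with LPS+Dex and 57.7, 52.9, 63.3, 31.8 and 58.2 CPM with vehicle, and fell by 1.71 ± 0.16 (adjusted p = 7.68e-07).

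Inflammasome and cell death genes were higher in 15 of 32 (46.9%, against 24.4%) and lower in 11 (34.4%, against 22%), with a median of -0.05. AIM2, a sensor of cytosolic DNA, rose by 3.75 ± 0.60, or 4.86 without the libraries numbered 4, with 13.5, 14, 15.6, 6.77 and 19.6 CPM with LPS+Dex and 0.579, 0.363, 0.413, 3.83 and 0.729 CPM with vehicle. NLRC4, which assembles the inflammasome for bacterial flagellin, fell by 2.87 ± 0.21, with 2.91, 3.85, 4.38, 3.66 and 3.24 CPM with LPS+Dex and 24.5, 24.3, 28, 26.6 and 27.5 CPM with vehicle. No library of one group overlapped the other in either gene.

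Genes of ribosomes and their assembly were mostly higher with TMM scaling, under which 24.4% of all genes were called higher and 22% lower. With library totals 1129 of all 12197 genes were called higher and 3703 lower (median -0.33). Ribosome biogenesis genes were higher in 38 and lower in 1 of 43, with a median of 0.57 (10 and 1 with library totals, median 0.24). DDX21, a nucleolar RNA helicase, had 473, 486, 459, 515 and 510 CPM with LPS+Dex and 169, 194, 176, 202 and 173 CPM with vehicle, and rose by 1.42 ± 0.08. NOP9, needed for small subunit maturation, fell by 0.38 ± 0.07. Cytosolic ribosomal protein genes were higher in 48 and lower in 0 of 72 (median 0.34) with TMM, in 27 with upper quartile scaling and in 0 with library totals (median 0.02). The other TOP mRNAs, which encode translation factors under the same control, were higher in 16 and lower in 0 of 21 (median 0.38), and in 1 with library totals.

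Ribosomal protein and other TOP mRNAs begin with a terminal oligopyrimidine (TOP) tract, a C at the start followed by pyrimidines, through which mTOR controls their translation. The stretch from 10 bases before to 20 bases after the annotated start is shown for 5 such mRNAs, and for DDX21 of the ribosome biogenesis list, where 8 of 37 genes held a match. Capitals mark a C within 5 bases of the annotated start and the pyrimidines, at least 4, that follow it. They begin 3 bases before that start in RPS7 and 2 bases after it in RPL32, so in both genes they do not begin at the annotated start. RPS7 (chr2:3575250-3575279, plus strand) and RPL32 (chr3:12841546-12841575, minus strand) encode ribosomal proteins. EEF1A1 (chr6:73521013-73521042, minus strand) and EEF2 (chr19:3985444-3985473, minus strand) are elongation factors. TPT1 (chr13:45341164-45341193, minus strand) is a growth-related TOP mRNA, and DDX21 lies at chr10:68956160-68956189, plus strand. The windows are RefSeq's on GRCh38.p14.
RPS7: cgccctcCTCCTCgcgctgtttccgcctct
RPL32: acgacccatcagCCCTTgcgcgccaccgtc
EEF1A1: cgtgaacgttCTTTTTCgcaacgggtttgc
EEF2: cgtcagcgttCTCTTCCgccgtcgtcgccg
TPT1: ctgagtcggcCTTTTCCgcccgctcccccc
DDX21: ggggaactacCTCTTCCTCTCCacgcggtt

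A C within 5 bases of an annotated start followed by at least 4 pyrimidines was found in 50 of 57 ribosomal protein genes with a window (87.7%), in 12 of 14 other TOP genes (85.7%) and in 8 of 37 ribosome biogenesis genes (21.6%), against 2956 of 9898 tested genes (29.9%). EEF1A1 had 212, 240, 207, 184 and 229 CPM with LPS+Dex and 131, 118, 111, 76.5 and 120 CPM with vehicle, a rise of 0.95 ± 0.14. RPS7 had 48.9, 42.5, 34.4, 37.5 and 45.1 CPM with LPS+Dex and 26.1, 29.4, 23.4, 19.9 and 25.6 CPM with vehicle, and rose by 0.74 ± 0.11; with library totals its adjusted p was 0.13. The log2 fold change was 0.67 ± 0.10 for EEF2 (adjusted p = 4.6e-05), 0.37 ± 0.14 for RPL32 (adjusted p = 0.041) and 0.30 ± 0.12 for TPT1 (adjusted p = 0.049); these 3 were chosen for their sequences.

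Other parts of the translation machinery moved less uniformly. Translation initiation and mTOR genes were higher in 18 (40.9%) and lower in 4 (9.09%) of 44 (median 0.17, and -0.14 with library totals). EIF4A3, a helicase of the exon junction complex, rose by 0.98 ± 0.06, with 470, 445, 441, 452 and 418 CPM with LPS+Dex and 229, 223, 225, 227 and 223 CPM with vehicle. EIF4EBP1, which restrains the cap-binding protein eIF4E, fell by 1.08 ± 0.21. ATF4 targets and tRNA synthetases were higher in 13 of 43 (30.2%) and lower in 8 (18.6%), shares near those of all genes (24.4% and 22%). Their median was 0.12, and -0.22 with library totals. DDIT4, an inhibitor of mTOR and a known glucocorticoid target, rose by 3.29 ± 0.16, and PHGDH, the first enzyme of serine synthesis, fell by 1.28 ± 0.16.

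With TMM, proteasome subunits were higher in 25 (69.4%, against 24.4% of all genes) and lower in 3 (8.33%, against 22%) of 36, with a median of 0.28. With library totals they were higher in 1 and lower in 3 (median -0.04), against 1129 and 3703 of all 12197 genes (median -0.33). PSMA6, a subunit of the core particle, rose by 0.73 ± 0.16, and PSMB9, an inducible subunit of the immunoproteasome, gave -0.53 ± 0.18 (adjusted p = 0.0222), a call that ended when any 1 of LPS+Dex libraries 1 and 2 or vehicle libraries 1, 2 and 3 was left out (adjusted p of up to 0.061). Cytosolic heat shock proteins were higher in 14 (58.3%) and lower in 3 (12.5%) of 24 (median 0.25, and -0.07 with library totals). The co-chaperone DNAJB6 rose by 0.86 ± 0.07, and HSPA4L, an HSP110 relative, fell by 0.97 ± 0.17.

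Histone and cell cycle genes were mostly lower. Of 51 tested replication-dependent histone genes 46 fell and 0 rose, with a median of -0.78; 22% of all genes were called lower. Their summed footprints took 0.104, 0.106, 0.105, 0.0506 and 0.103 percent of the LPS+Dex libraries, against 0.234, 0.225, 0.226, 0.112 and 0.221 percent of the vehicle libraries. Library 4 held the smallest share in both groups, and vehicle library 4 still lay above every LPS+Dex library. The linker histone H1-3 fell by 1.38 ± 0.18, with 20.9, 22.5, 21.3, 15.5 and 23.6 CPM with LPS+Dex and 58.5, 65.9, 58.9, 32.2 and 55 CPM with vehicle. Histone genes are close copies of each other, so single members are uncertain.

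Cell cycle and DNA replication genes were lower in 25 (55.6%, against 22% of all genes) and higher in 2 (4.44%, against 24.4%) of 45, with a median of -0.53. AURKA, a mitotic kinase, had 5.62, 5.95, 4.96, 4.35 and 3.43 CPM with LPS+Dex and 24.5, 25.9, 25.9, 18.4 and 23.1 CPM with vehicle, and fell by 2.27 ± 0.15 (adjusted p = 9.31e-09). CCNE2, a cyclin of the G1/S transition, rose by 1.98 ± 0.14, with 33.7, 29.6, 25, 27.1 and 28.8 CPM with LPS+Dex and 5.83, 8.18, 7.13, 6.54 and 8.81 CPM with vehicle. PMA had already been given to all groups, so these are changes among cells differentiated by PMA.

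**Figure D4:**
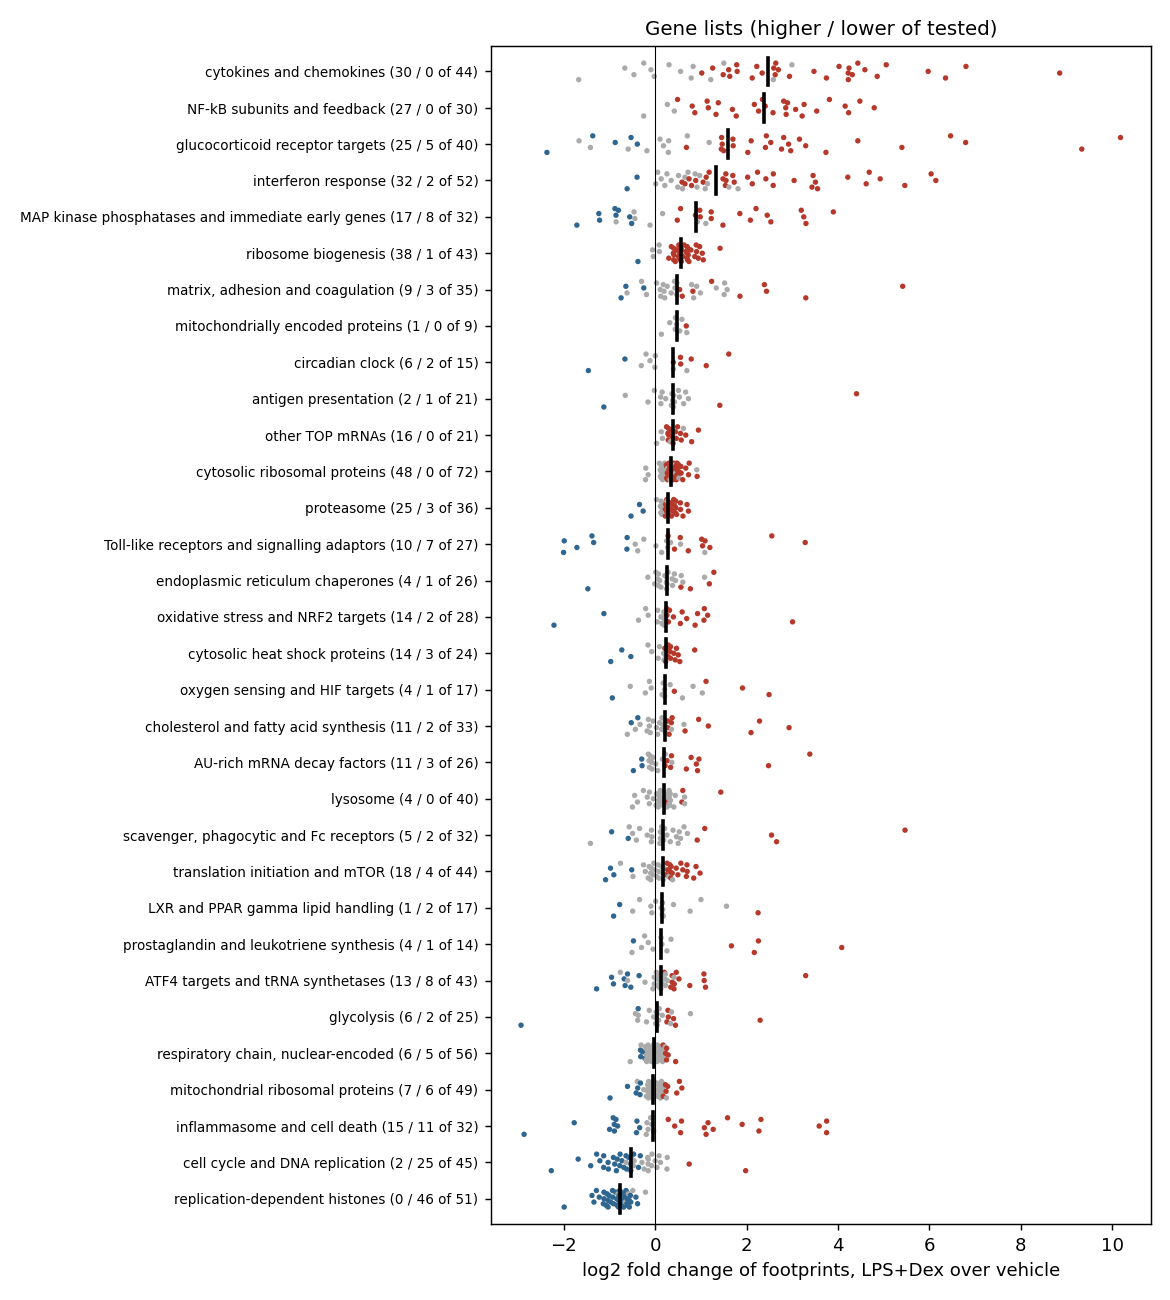
Log2 fold changes of footprints, LPS+Dex over vehicle, for the tested members of 32 gene lists, with red for genes called higher, blue for lower, grey for not called, a black tick at the list's median, and the counts beside each name. Cytokine genes (2.46) and NF-kB genes (2.38) have the highest medians, in the opposite order with the block, without the libraries numbered 4 and with library totals, and replication-dependent histones lie at -0.78; with library totals in place of TMM the median changed sign in 16 lists, glycolysis among them, while the median of all genes moved to -0.33, and relative to that median it changed sign in 0 of the 32 lists.

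Oxidative stress and NRF2 targets were higher in 14 of 28 (50%, against 24.4% of all genes) and lower in 2 (18 and 5 with the block; median 0.25, and -0.08 with library totals). OSGIN1, an oxidative stress response gene, rose by 1.15 ± 0.12, whereas HMOX1, which degrades haem, fell by 2.21 ± 0.43, with 105, 106, 110, 347 and 80.2 CPM with LPS+Dex and 678, 537, 555, 1182 and 514 CPM with vehicle. Glycolysis genes were higher in 6 of 25 (24%, near the 24.4% of all genes) and lower in 2 (8%, against 22%). With the block 9 were higher (36%, against 31.3%) and 4 lower (16%, against 29.8%). SLC2A6, a hexose transporter of the list, rose by 2.30 ± 0.25, and PFKFB4, which sets the level of fructose 2,6-bisphosphate, fell by 2.93 ± 0.17.

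Nuclear-encoded respiratory chain genes were mostly not called, with 6 higher (10.7%) and 5 lower (8.93%) of 56. Both shares lay below the 24.4% and 22% of all genes. With the block 11 were higher (19.6%, against 31.3%) and 14 lower (25%, against 29.8%). Cytochrome c, CYCS, rose by 0.45 ± 0.09, although its adjusted p was 0.53 with library totals. NDUFS8, a complex I subunit, gave -0.32 ± 0.11 (adjusted p = 0.0309), a call that ended without any 1 of LPS+Dex libraries 1, 2, 3 and 5 or vehicle libraries 1 and 4 (adjusted p of up to 0.079). Mitochondrial ribosomal proteins were higher in 7 (14.3%) and lower in 6 (12.2%) of 49. With the block 13 were higher (26.5%) and 9 lower (18.4%), again below the shares of all genes. MRPL15 rose by 0.58 ± 0.10 (adjusted p = 0.37 with library totals) and MRPS6 fell by 0.99 ± 0.10. Of 9 tested mitochondrially encoded genes 1 was higher (11.1%) and 0 lower, also below the shares of all genes.

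Cholesterol and fatty acid synthesis genes were higher in 11 (33.3%) and lower in 2 (6.06%) of 33 (14 and 4 with the block), with a median of 0.21. Without the libraries numbered 4 the counts were 13 and 9 (median 0.09). With library totals they were 4 and 8 (median -0.18), against 1129 and 3703 of all 12197 genes (median -0.33). FADS1, a fatty acid desaturase, had 86, 81.9, 88.1, 280 and 74.1 CPM with LPS+Dex and 15.9, 14.4, 16.4, 13.4 and 19.8 CPM with vehicle, and rose by 2.93 ± 0.33, or 2.31 without the libraries numbered 4. PMVK, an enzyme of the mevalonate pathway, gave -0.52 ± 0.18 (adjusted p = 0.0286), a call that ended without any 1 of LPS+Dex libraries 1, 2, 4 and 5 or vehicle libraries 1, 2, 3 and 5 (adjusted p of up to 0.078). Lipid-handling genes of LXR and PPAR gamma were higher in 1 (5.88%) and lower in 2 (11.8%) of 17, below the 24.4% and 22% of all genes. With the block 5 were higher and 3 lower. CPT1A, the gate of mitochondrial fatty acid import, fell by 0.91 ± 0.19.

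In several lists of secreted, membrane and endoplasmic reticulum proteins the libraries numbered 4 lay far above their groups. The median deviation of library 4 from the other 4 of its group, in log2(CPM + 1), was 1.62 with LPS+Dex and 0.89 with vehicle for matrix, adhesion and coagulation genes. For endoplasmic reticulum chaperones it was 1.42 and 0.77 in the same order, for lysosomal genes 1.25 and 0.71, and for cytokines 1.40 and 0.89. For cytosolic ribosomal proteins it was -0.06 and -0.09, and for NF-kB genes -0.02 and -0.02. The part of this difference between libraries in the results was not tested beyond the values given with the block and without these libraries.

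**Figure D5:**
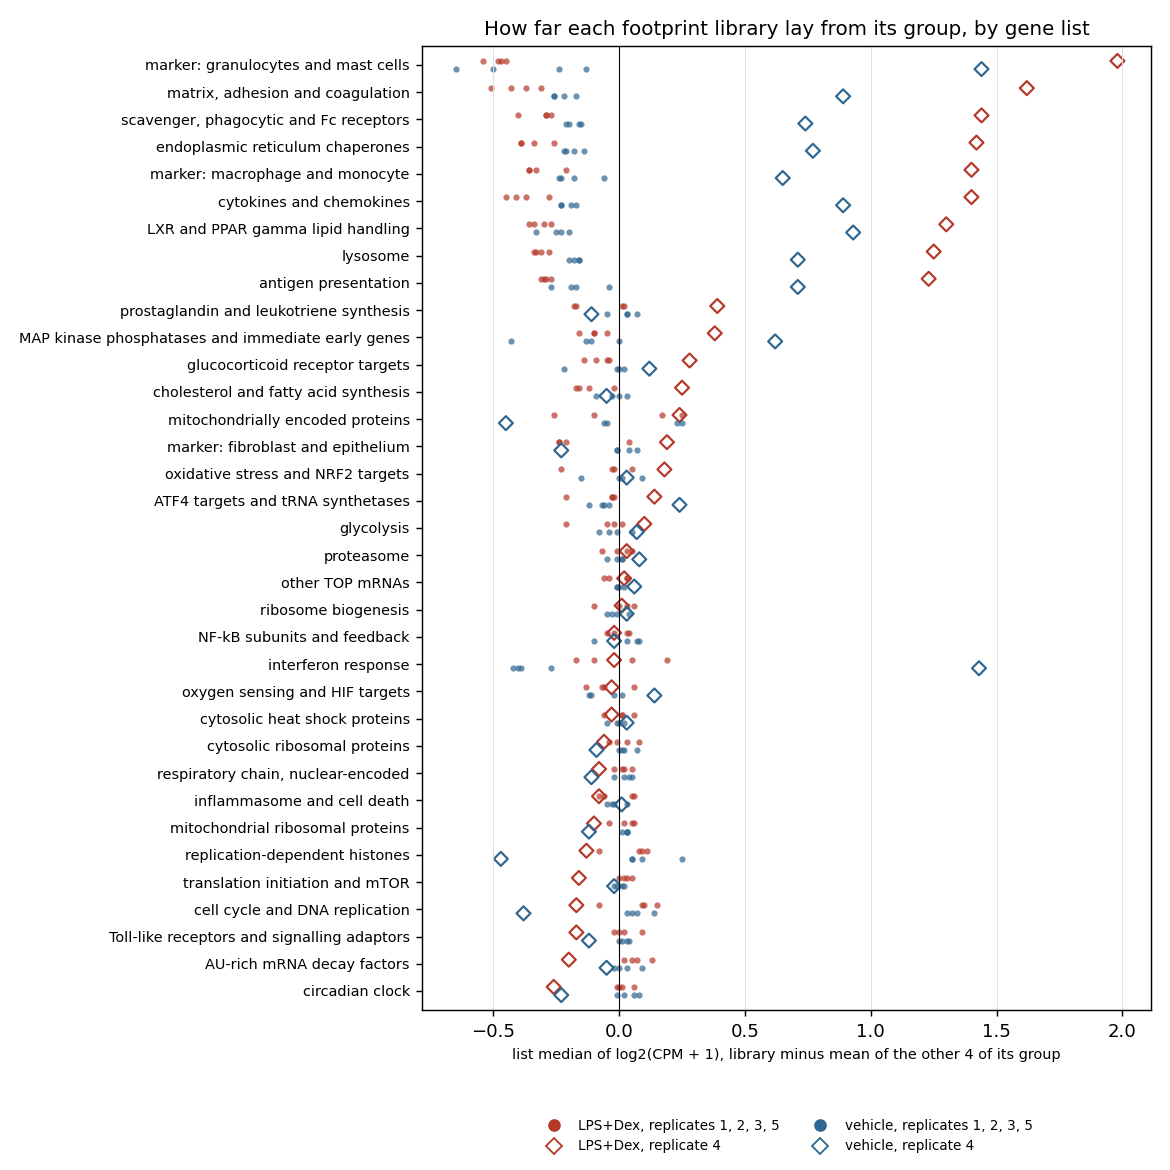
For each gene list with at least 5 tested members, the median log2(CPM + 1) of each library minus the mean of the other 4 libraries of its group, with filled points for replicates 1, 2, 3 and 5, open diamonds for replicate 4, and LPS+Dex in red above vehicle in blue. Replicate 4 of LPS+Dex lies at 1.62 for matrix genes and at -0.06 for cytosolic ribosomal proteins, and for interferon response genes replicate 4 lies at -0.02 with LPS+Dex and at 1.43 with vehicle.

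With the block more genes were called in these lists, as over all genes, where the share rose to 31.3% higher and 29.8% lower with the block, against 24.4% and 22% without it. Matrix, adhesion and coagulation genes were higher in 9 (25.7%) and lower in 3 (8.57%) of 35, and in 21 (60%) and 6 (17.1%) with the block. F3, the tissue factor that starts coagulation, had 127, 116, 122, 585 and 122 CPM with LPS+Dex and 4.6, 3.42, 4.54, 9.19 and 3.77 CPM with vehicle, and rose by 5.42 ± 0.71, or 4.89 without the libraries numbered 4. ITGA4, an integrin subunit, fell by 0.75 ± 0.16. Endoplasmic reticulum chaperone and stress genes were higher in 4 (15.4%) and lower in 1 (3.85%) of 26. With the block 11 (42.3%) were higher and 1 (3.85%) lower, and without the libraries numbered 4 the counts were 10 and 7. HERPUD1, of endoplasmic reticulum-associated degradation, rose by 1.28 ± 0.12. ERN1, the stress sensor IRE1, gave -1.47 ± 0.53 (adjusted p = 0.0328); this call ended without any 1 of LPS+Dex libraries 1, 2, 3 and 5 or vehicle library 4 (adjusted p of up to 0.1), while the block gave -1.62 (adjusted p = 1.45e-10).

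Lysosomal genes were higher in 4 (10%) and lower in 0 of 40, below the 24.4% and 22% of all genes. With the block 12 were higher (30%, against 31.3%) and 6 lower (15%, against 29.8%). Without the libraries numbered 4 the counts were 12 and 11. CTSC, the protease that activates granule serine proteases, had 1335, 1354, 1279, 4650 and 1380 CPM with LPS+Dex and 603, 593, 623, 1222 and 654 CPM with vehicle, and rose by 1.44 ± 0.40 (adjusted p = 0.00859). Antigen presentation genes were higher in 2 (9.52%) and lower in 1 (4.76%) of 21, also below the shares of all genes. With the block 10 were higher (47.6%) and 2 lower (9.52%). CD80, a costimulator of T cells, had 19, 18.8, 17.4, 17.9 and 15.2 CPM with LPS+Dex and 0.869, 0.967, 0.638, 0.905 and 0.792 CPM with vehicle, and rose by 4.40 ± 0.13. NLRC5, the transactivator of MHC class I genes, fell by 1.12 ± 0.14.

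Scavenger, phagocytic and Fc receptors were higher in 5 (15.6%) and lower in 2 (6.25%) of 32, below the 24.4% and 22% of all genes. With the block 8 were higher (25%, against 31.3%) and 7 lower (21.9%, against 29.8%). CLEC4E, the mycobacterial glycolipid receptor Mincle, had 23, 24.7, 22.3, 28.1 and 20.9 CPM with LPS+Dex and 0.615, 0.685, 0.713, 0.0696 and 0.444 CPM with vehicle, and rose by 5.47 ± 0.26 (adjusted p = 3.8e-10). TREM2, a lipid receptor of tissue macrophages, gave -0.95 ± 0.32 (adjusted p = 0.0221), with 303, 331, 343, 893 and 323 CPM with LPS+Dex and 870, 706, 773, 1138 and 754 CPM with vehicle. That call ended without any 1 of LPS+Dex libraries 1, 2, 3 and 5 or vehicle library 4 (adjusted p of up to 0.054), and the value without the libraries numbered 4 was -1.26 (adjusted p = 1.59e-13). CD163, the haemoglobin scavenger receptor, had 223, 204, 218, 672 and 200 CPM with LPS+Dex and 135, 154, 146, 346 and 151 CPM with vehicle, a log2 fold change of 0.70 ± 0.42 (adjusted p = 0.191) that was 0.62 with the block (adjusted p = 6.51e-06). Of the 16 macrophage markers 2 were called lower (12.5%) and 0 higher, and with the block 9 lower (56.2%) and 2 higher (12.5%).

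The poly(A) RNA-seq libraries gave the mRNA side of the comparison. In RNA 3893 of 13327 genes were higher with LPS+Dex (29.2%) and 4128 lower (31%). Of the 5570 genes called in footprints and tested in RNA, 4512 were called in RNA in the same direction, 15 in the opposite direction and 1043 were not called. Over 11944 genes tested in both assays the log2 fold changes had a Pearson r of 0.903, as a description across genes, which are not replicates. Among named genes, the RNA log2 fold change was 3.85 ± 0.17 for TNF, against 5.05 ± 0.79 in footprints, and 6.34 ± 0.36 for FKBP5, against 6.46 ± 0.29. For IFIT1 it was 5.71 ± 0.15, against 3.51 ± 0.77 in footprints and 5.65 there without the libraries numbered 4. PTGS2 had 2.47 ± 0.29 in RNA and 4.08 ± 0.53 in footprints, FSTL3 7.22 ± 0.28 and 9.33 ± 0.52, MARCHF1 -2.42 ± 0.30 and -4.57 ± 0.31, and ITGA4 -2.14 ± 0.15 and -0.75 ± 0.16; whether the assays differed in these genes was not tested. In RNA 66 of 72 ribosomal protein genes were called higher and 0 lower (median 0.44), and only 8 replication-dependent histone genes, whose mRNAs lack a poly(A) tail, could be tested there.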

How the data were processed

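Raw counts per gene were taken as the authors deposited them, for 15 ribosome footprint and 12 poly(A) RNA libraries. The submitters' processing notes name GRCh38 and, among tools, DESeq2 1.26.0, featureCounts 2.0.1, STAR 2.7.10a and, for footprints alone, Bowtie2 2.4.5. Not given in the sources used here are the role of each tool, which feature was counted, the strand setting and the rule for multi-mapping reads. Groups came from the sample titles. The labels do not say whether replicates were separate cultures, so the p-values reflect the spread among these libraries only, which may be technical.

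Genes passing filterByExpr (minimum count 10, total 15) were tested with the edgeR 4.0.16 quasi-likelihood F test (R 4.3.3, TMM) in a fit of all 15 footprint libraries without a block, with Benjamini-Hochberg adjustment over all tested genes and a threshold of 0.05. The RNA libraries were fitted separately in the same way. CPM used TMM-scaled library sizes. Alternatives were the replicate number as a block, 10 libraries only, other scalings, other filters, a robust spread, DESeq2 1.42.0, and leaving out libraries singly or all those numbered 4. Scripts were tested on simulated data.

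The replicate numbers were checked for pairing. For each gene the log2 CPM of a library was taken as its deviation from the mean of its group. Across genes, correlations of these deviations between same-numbered LPS+Dex and vehicle libraries were 0.182 to 0.687, over 0.1 in 5 of 5 pairs. The highest, 0.687, was that of the libraries numbered 4. Of 20 pairs with different numbers 11 were also over 0.1, with values from -0.453 to 0.29. Every pair of a library numbered 4 with another number was negative. Deviations cancel out within a group, so a library that stands apart pushes the others of its group the opposite way. Without the libraries numbered 4, 1 of 4 same-numbered pairs and 1 of 12 pairs with different numbers were over 0.1. The main values, standard errors and adjusted p-values come from the fit without the block, and the block's values stand beside them where they change a call or a count. In RNA 2 of 4 pairs were over 0.1.

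Members and gene lists were chosen with earlier results of these data known. Named genes were a panel of 25; among called genes of at least 5 CPM whose groups did not overlap, the 8 with the greatest rise and the 8 with the greatest fall; the 5 lowest p-values further in each direction; and for each list its largest called rise and fall at 5 CPM or more. Promoter sequences are from RefSeq (GRCh38.p14), matched by symbol; the interferon element was added to the motifs after the data were seen.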

Additional observations from a re-analysis of the deposited data

Results flagged for a closer look

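Dixon's criterion at 95% was applied to the LPS+Dex and vehicle libraries of named genes, and not to those with LPS alone. In 62 of the 208 groups of 5 libraries, 1 library lay far from the other 4. Chance gives about 1 in 20 such groups. The libraries numbered 4 accounted for 59 of the 62. Each level is followed by the range of the other 4 libraries, and the causes were not tested.

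LPS+Dex library 4 was high in 29 genes. TNF stood at 5102 CPM (704 to 955), IL1B at 32751 CPM (11257 to 12630), IL6 at 7.53 CPM (4.61 to 4.96) and CXCL8 at 30380 CPM (6058 to 7610). CCL2 stood at 90.5 CPM (8.46 to 14), CCL20 at 16766 CPM (3552 to 4033), PTGS2 at 685 CPM (157 to 220) and IL10 at 5.94 CPM (1.81 to 2.56). IL1RN stood at 1019 CPM (82 to 92.3), ZFP36 at 144 CPM (83.8 to 92.3), DUSP1 at 1627 CPM (436 to 557) and CD163 at 672 CPM (200 to 223). TLR4 stood at 51.3 CPM (15.6 to 17.2), FSTL3 at 1777 CPM (782 to 872), CCN2 at 4888 CPM (1006 to 1157) and CSF3 at 542 CPM (45.2 to 53.5). CCL4L2 stood at 7690 CPM (3872 to 4262), TNFAIP6 at 824 CPM (328 to 347), TLR6 at 13.5 CPM (3.31 to 3.71) and HERPUD1 at 437 CPM (263 to 304). ERN1 stood at 111 CPM (24.6 to 28.2), HMOX1 at 347 CPM (80.2 to 110), SLC2A6 at 1597 CPM (646 to 754) and FADS1 at 280 CPM (74.1 to 88.1). CPT1A stood at 123 CPM (61.6 to 71), CTSC at 4650 CPM (1279 to 1380), TREM2 at 893 CPM (303 to 343) and F3 at 585 CPM (116 to 127). PDGFRA stood at 137 CPM (39.1 to 49.1). It was low in 4 genes. FKBP5 stood at 1694 CPM (2078 to 2174), TRIM63 at 8.01 CPM (13.1 to 14.4), KLF2 at 17.3 CPM (41.2 to 49) and NFIL3 at 33.5 CPM (40.6 to 42.6).

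Vehicle library 4 was high in 24 genes. IL1B stood at 5569 CPM (1259 to 1906), CXCL8 at 4891 CPM (1007 to 1449), CCL2 at 78 CPM (7.57 to 8.82) and CCL20 at 131 CPM (59.7 to 68.3). CXCL10 stood at 5.78 CPM (0.806 to 1.39), PTGS2 at 27.8 CPM (10.7 to 15.6), ACOD1 at 0.766 CPM (0.145 to 0.322) and IFIT1 at 40.3 CPM (1.88 to 2.66). IL1RN stood at 1365 CPM (125 to 135), DUSP1 at 71 CPM (16.9 to 28.3), PER1 at 67.8 CPM (28 to 37.6) and CD163 at 346 CPM (135 to 154). TLR4 stood at 50.4 CPM (21.1 to 29.2), CCN2 at 6.68 CPM (2.35 to 3.49), CASS4 at 121 CPM (60.7 to 75.7) and IFIT2 at 10.2 CPM (1.3 to 2.12). TLR6 stood at 39.4 CPM (15.4 to 19.9), AIM2 at 3.83 CPM (0.363 to 0.729), ERN1 at 245 CPM (81.2 to 98.9) and HMOX1 at 1182 CPM (514 to 678). PFKFB4 stood at 118 CPM (83.3 to 92.8), CTSC at 1222 CPM (593 to 654), F3 at 9.19 CPM (3.42 to 4.6) and PDGFRA at 10.2 CPM (7.45 to 7.61). It was low in 2 genes. CX3CR1 stood at 18.4 CPM (31.1 to 35.7) and PMVK at 21.3 CPM (32.4 to 35.9).

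Library 5 stood apart in 3 genes. With LPS+Dex it was low in MID1IP1, at 57.2 CPM (65.9 to 68), and with vehicle it was high in MRPS6, at 119 CPM (84.1 to 92.2), and low in NFKBIA, at 243 CPM (326 to 342).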

How the results depend on the processing

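The number of genes called for LPS+Dex against vehicle was 5657 and lay between 4832 and 7780 over 12 other settings, and between 5094 and 6044 when 1 library was left out. With library totals in place of TMM the genes called higher numbered 1129, and those called at least 2-fold lower 1788; fewer genes rise there because that scaling lowers the median of all genes to -0.33. All other counts over all genes stayed within 1.5 times. DESeq2 called 3156 higher and 2807 lower. Of 2800 values of the 104 named genes under other settings, 2721 kept direction and call, 54 lost and 21 gained the call, and 4 changed sign. These were CCL2, at -0.14 with library totals and -0.95 without LPS+Dex replicate 4, NR3C1, at -0.11 with library totals, and IL1RN, at 1.07 without vehicle replicate 4; the cause was not tested. With 1 library left out CCL2 lay between -0.95 and 1.72 and IL1RN between -2.12 and 1.07. The replicate number as a block (15 libraries) gave 7454 calls, and no call of a named gene was lost under it. In RNA 8021 genes were called, with 7333 to 8195 when 1 library was left out.

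Depth limits the genes with few vehicle counts, such as ZBTB16, whose fold rests on 4 counts, and 8256 genes were too low to test. Changes are relative to the average gene, so a change of all genes together would not be seen.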

Other observations

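A few smaller lists complete the account. Circadian clock genes were higher with LPS+Dex than with vehicle in 6 of 15 (40%) and lower in 2 (8 and 4 with the block). With library totals 1 was higher and 3 were lower, against 1129 and 3703 of all 12197 genes. CRY2, a clock repressor, rose by 0.56 ± 0.13 (adjusted p = 0.2 with library totals), and NFIL3, a repressor of clock output genes, fell by 0.66 ± 0.09. Genes of oxygen sensing were higher in 4 of 17 (23.5%, near the 24.4% of all genes) and lower in 1 (7 and 3 with the block). EGLN1 had 70.5, 68.6, 82.5, 62.6 and 87.2 CPM with LPS+Dex and 14.9, 12.9, 12.5, 10.6 and 15.1 CPM with vehicle, and the histone demethylase KDM3A fell by 0.94 ± 0.09. Prostaglandin and leukotriene genes were higher in 4 of 14 (28.6%) and lower in 1 (4 and 5 with the block). PLA2G4A, which releases arachidonic acid, gave -0.47 ± 0.17 (adjusted p = 0.0294), a call that ended without any 1 of LPS+Dex libraries 1, 2, 4 and 5 or vehicle libraries 1, 2 and 3 (adjusted p of up to 0.074).

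Markers of other cell types were also read in the footprints, where 24.4% of all genes were called higher and 22% lower. Of the T, B and NK cell markers 0 of 3 tested genes were higher and 0 lower. Granulocyte and mast cell markers summed to 1017 to 4302 CPM with LPS+Dex and 875 to 2658 CPM with vehicle, with 0 of 7 higher and 1 lower, and CEACAM8 and CPA3 had no count. Their granule genes ELANE, AZU1, PRTN3 and CTSG averaged above 10 CPM. Erythroid and platelet markers summed to 0.827 to 3.73 CPM with LPS+Dex and 0.666 to 1.88 CPM with vehicle. Fibroblast and epithelial markers summed to 46.2 to 145 CPM with LPS+Dex and 12.4 to 14.4 CPM with vehicle, and 3 of 7 were higher (42.9%). PDGFRA, a growth factor receptor, was the only one of them to average above 10 CPM and made up most of these sums. It had 43.1, 49.1, 45.7, 137 and 39.1 CPM with LPS+Dex and 7.46, 7.45, 7.5, 10.2 and 7.61 CPM with vehicle.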
